A study of Mus musculus with 20 samples.

Results

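The MHC class I antigen presentation machinery is represented here by 10 genes of the 55487 in the count table, chosen by name as parts of the pathway: the light chain *B2m*, the heavy chains *H2-K1* and *H2-D1*, the peptide transporter genes *Tap1* and *Tap2*, the loading chaperone *Tapbp*, the immunoproteasome subunits *Psmb8*, *Psmb9* and *Psmb10*, and the coactivator *Nlrc5*. All 10 were found by their Ensembl identifiers and all 10 passed the filter on low counts, with 44 to 26369 reads per library. RNA was sequenced from 20 cultures of BV-2 cells, an immortalised microglial line made from the brains of young C57BL/6 mice and labelled wild type. The cultures formed 4 groups of 5: young untreated, aged untreated, young LPS and aged LPS. LPS, a bacterial ligand of Toll-like receptor 4, was given at 100 ng/ml for 6 h. Aged cells had been kept in culture for months and then frozen, and young cells were taken at low passage. Aliquots of both ages were thawed together before use. Ageing here therefore means long-term cultivation of 1 cell line, the aged lineage began from a later passage than the young cells, and whether all aged aliquots came from 1 long cultivation is not given in the sources used here.

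MHC class I molecules show short peptides from inside the cell to CD8+ T cells. The proteasome cuts proteins into peptides, the TAP1-TAP2 pump moves them into the endoplasmic reticulum, and tapasin, the product of *Tapbp*, holds empty class I molecules at the pump until a peptide fits. Interferons and NF-kappaB signals raise most of these genes together, and NLRC5 acts at the promoters of class I heavy chains, *B2m*, *Tap1* and *Psmb9*. In a resting brain microglia carry little class I on their surface, and inflammation raises it.

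The libraries held 11371508 to 16829292 counted reads, of which 0.517% to 1.3% fell on mitochondrial genes. All 10 microglia and macrophage markers (among them *Csf1r*, *Aif1*, *Spi1* and *Tyrobp*) were detected above 3 counts in every group. The neuronal and fibroblast markers stayed at or below 3 counts in all libraries. So did *Gfap*, *Aqp4*, *Mog*, *Mag*, *Cd3e*, *Xcr1* and *Clec9a*, which mark astrocytes, oligodendrocytes, lymphocytes and dendritic cells, whereas *Itgax* and *Zbtb46* of the dendritic list were detected. *Tnf* rose with LPS by 5.07 on the log2 scale in young and by 4.74 in aged cultures (edgeR adjusted p = 1.43e-16 and 7.82e-16), *Il1b* by 8.5 and 8.04 (1.21e-09 and 1.34e-07) and *Nos2*, close to 0 without LPS, also rose in both (3.23e-12 and 3.83e-11), so that the LPS labels fit the libraries.

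Within the groups 1 aged culture stood apart for these genes. Aged culture 3 was the highest of the 5 aged LPS cultures for 10 of the 10 members, by a median of 0.57 on the log2 scale over the median of the other 4 (0.24 to 1.16), and the highest of the aged untreated cultures for 8 of 10. Among all genes it was the highest of the aged LPS cultures for 25.1% and the lowest for 27.4%. Some other LPS-responsive transcripts, picked after their values were seen, were high in it too. *Il1b* was at 191 CPM against 15.9 to 67.6 CPM in the other aged LPS cultures, *Tnf* at 576 against 401 to 424 CPM, *Irf1* at 58.7 against 34.5 to 40.3 CPM and *Stat2* at 93.7 against 32.2 to 54.5 CPM. *Cd74*, which also rose with LPS, went the other way and was lowest in aged LPS culture 3. Young cultures 1 and 4 also stood out: culture 4 was the lowest for 8 of 10 members without LPS and 9 of 10 with it, and culture 1 was the highest for 9 and 7. CPM are counts scaled by the library size after TMM normalisation. Calls and counts are given with and without aged culture 3, and where leaving out another culture number changes them.

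**Figure D1:**
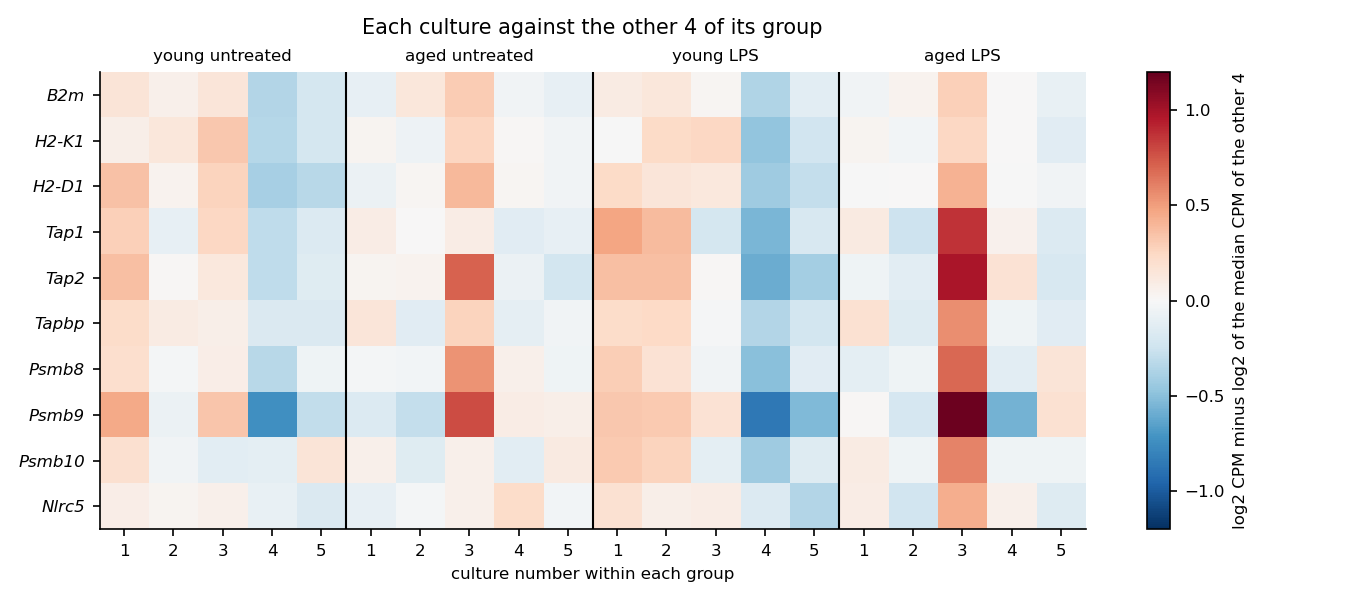
Difference, on the log2 scale, between the CPM of each culture and the median CPM of the other 4 cultures of its group, for the 10 class I genes (rows) in 20 cultures (columns, numbered within each group). Aged culture 3 is above the others of its group in all 10 rows after LPS, and young culture 4 is below them in most rows.

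RefSeq promoter entries (GRCm38.p6) matched 8 of the 10 members. The 250 bases before the start site were searched on both strands for an interferon-stimulated response element core (GAAANNGAA), a gamma-activated site (TTCNNNGAA), a kappa B site (GGGNNTTNC), a CCAAT box (CCAAT) and a cyclic AMP response element (CRE) core (TGACG). The windows of *B2m* and *H2-K1* are shown because they carry the classical order of class I promoter elements, an inducible element upstream and the CRE core and CCAAT box near the start. Capitals mark every match to the letters of the 5 motifs, and each sequence reads in the direction of transcription and stops before the first annotated exon. Variants of an element with other letters were not searched for, so that a window without a mark can still hold one.
B2m, chr2:122147437-122147685, plus strand: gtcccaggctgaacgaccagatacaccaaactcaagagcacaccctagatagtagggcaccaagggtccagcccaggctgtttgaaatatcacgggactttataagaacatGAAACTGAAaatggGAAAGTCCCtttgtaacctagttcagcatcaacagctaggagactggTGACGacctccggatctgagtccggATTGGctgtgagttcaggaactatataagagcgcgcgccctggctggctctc
H2-K1, chr17:34000348-34000597, minus strand: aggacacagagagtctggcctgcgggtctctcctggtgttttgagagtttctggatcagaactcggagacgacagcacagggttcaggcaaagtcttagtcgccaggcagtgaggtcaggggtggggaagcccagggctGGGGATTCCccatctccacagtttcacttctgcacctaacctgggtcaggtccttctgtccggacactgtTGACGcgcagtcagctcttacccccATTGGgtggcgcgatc

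*B2m* held the response element core GAAACTGAA at positions -139 to -131 and the kappa B match GAAAGTCCC, read on the minus strand, at -125 to -117. *H2-K1*, shown for 1 of its 2 annotated starts, held the kappa B match GGGGATTCC at -111 to -103. *H2-D1* had the same 9 letters at -171 to -163, and in both heavy chains the kappa B match began 70 bases before the CRE core, against 47 bases in *B2m*. The windows of *H2-D1*, *Tap1*, *Tapbp*, *Psmb8* and *Psmb9* lie inside annotated exons and are not printed. *Psmb8* had a gamma-activated site match, TTCCCAGAA, at -97 to -89. *Tap1* and *Psmb9* start next to each other on opposite strands, and their windows overlap. The CRE core and the CCAAT box found in both windows are the same bases, read from opposite strands. *Tapbp* held CCAAT boxes only, and none of the 5 motifs was found in the window of *Psmb10*. Of all 32851 promoters in the table, 7.13% held the response element core, 7.02% the gamma-activated site, 13.0% the kappa B site, 33.8% the CCAAT box and 17.8% the CRE core. *Tap2* and *Nlrc5* had no entry.

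Per length of transcript, *B2m* was by far the most abundant member, and *Psmb9* the least abundant, in all 4 groups. In young untreated cultures *B2m* was at 3720 ± 416 TPM (mean ± SD, n = 5; TPM divides counts by the union exonic length), *H2-D1* at 942 ± 152 TPM and *H2-K1* at 213 ± 32.1 TPM. *Tapbp* followed at 150 ± 12.4 TPM, *Psmb10* at 106 ± 5.56 TPM and *Psmb8* at 83.3 ± 9.17 TPM. *Nlrc5* (34.5 ± 2.18 TPM), *Tap1*, *Tap2* (13.8 ± 1.93 TPM) and *Psmb9* (6.92 ± 1.69 TPM) were the scarcest. No neighbours in this order had overlapping ranges in the young untreated group. In aged untreated cultures *H2-K1* dropped from the third to the fifth place, at 98.9 ± 8.26 TPM, and its range overlapped that of *Psmb10* (103 ± 4.78 TPM), which in turn overlapped *Tapbp* (115 ± 10.1 TPM). After LPS *Tapbp* took the third place at both ages (583 ± 68.7 TPM in young and 345 ± 64.4 TPM in aged cultures), overlapping *H2-K1* in the young group only, and *Tap1* moved above *Nlrc5*, with ranges that did not overlap in the young group and did in the aged group.

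The first comparison asked what LPS did to the class I genes in young cells. All 10 members rose, from 1.8-fold for *H2-D1* to 6.66-fold for *Tap1*, with a median log2 fold change of 1.51 against -0.011 over all 12799 genes tested. Of all genes, 31.2% were called higher by the same rule, an adjusted p below 0.05 in edgeR's quasi-likelihood test. The groups did not overlap for 10 of 10 members, as for 23.9% of all genes, and the rise was seen in all 5 culture numbers for each member. The peptide pump and tapasin led. *Tap1* (chr17:34187553-34197225) read 38.1, 31.7, 37.1, 27.9 and 30.8 CPM in young untreated cultures 1 to 5 and 280, 262, 201, 159 and 203 CPM after LPS. Every LPS culture lay far above every untreated one, and *Tap1* rose by 2.74 ± 0.17 on the log2 scale (SE; edgeR adjusted p = 2.78e-12). *Tap2* (chr17:34203527-34216321), its partner in the pump, read 17.6, 14.2, 15.0, 11.8 and 13.2 CPM without LPS and 90.4, 90.1, 77.5, 55.3 and 63.2 CPM with it (log2 fold change 2.39 ± 0.2, adjusted p = 3.22e-10). *Tapbp* (chr17:33915899-33929292) went from 136 to 168 CPM up to 575 to 781 CPM, 4.62-fold (adjusted p = 4.74e-14).

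The heavy and light chains rose less in young cells. *H2-K1* (chr17:33996017-34000347) read 176, 181, 206, 141 and 154 CPM in untreated and 530, 589, 597, 403 and 477 CPM in LPS cultures. The lowest LPS culture was above the highest untreated one, and the log2 fold change was 1.6 ± 0.1 (adjusted p = 5.98e-12). *H2-D1* (chr17:35262730-35267499), at 544 to 797 CPM without LPS and 964 to 1380 CPM with it, rose by 0.85 ± 0.12 (adjusted p = 1.64e-06). *B2m* (chr2:122147686-122153083), whose product pairs with every class I heavy chain, went from 739 to 969 CPM to 1440 to 1930 CPM, 1.99-fold (adjusted p = 1.63e-09). Up to 9.63% of the 50-base stretches of *H2-K1* and 12.8% of those of *H2-D1* also occur in other genes, chiefly other class I genes, so their counts are less certain than those of the other members, for which this share was at most 2.87%.

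The immunoproteasome subunits replace 3 constitutive catalytic subunits of the proteasome. In young cells *Psmb9* (chr17:34181987-34187764) rose by 1.68 ± 0.25 on the log2 scale, from 4.55 to 8.97 CPM up to 14.5 to 27.3 CPM (adjusted p = 3.03e-06). *Psmb10* (chr8:105935735-105938444) read 54.1, 48.3, 46.4, 46.6 and 52.9 CPM in untreated and 155, 150, 126, 103 and 124 CPM in LPS cultures, 2.65-fold (adjusted p = 1.46e-10). *Psmb8* (chr17:34197721-34201454) rose from 63.1 to 88.9 CPM to 107 to 173 CPM, by 0.89 ± 0.14 (adjusted p = 8.1e-06). *Nlrc5* (chr8:94434356-94527272), the coactivator, read 84.9, 82.5, 83.7, 78.0 and 73.5 CPM without LPS and 245, 227, 229, 204 and 179 CPM with it, 2.69-fold (adjusted p = 6.89e-12). Exons of *Tap1* and *Psmb9* share 212 bases on opposite strands, and 904 exonic bases of *Tapbp* are shared with an antisense gene that had 4 to 47 reads per library. The strand setting of the counting is not given in the sources used here.

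**Figure D2:**
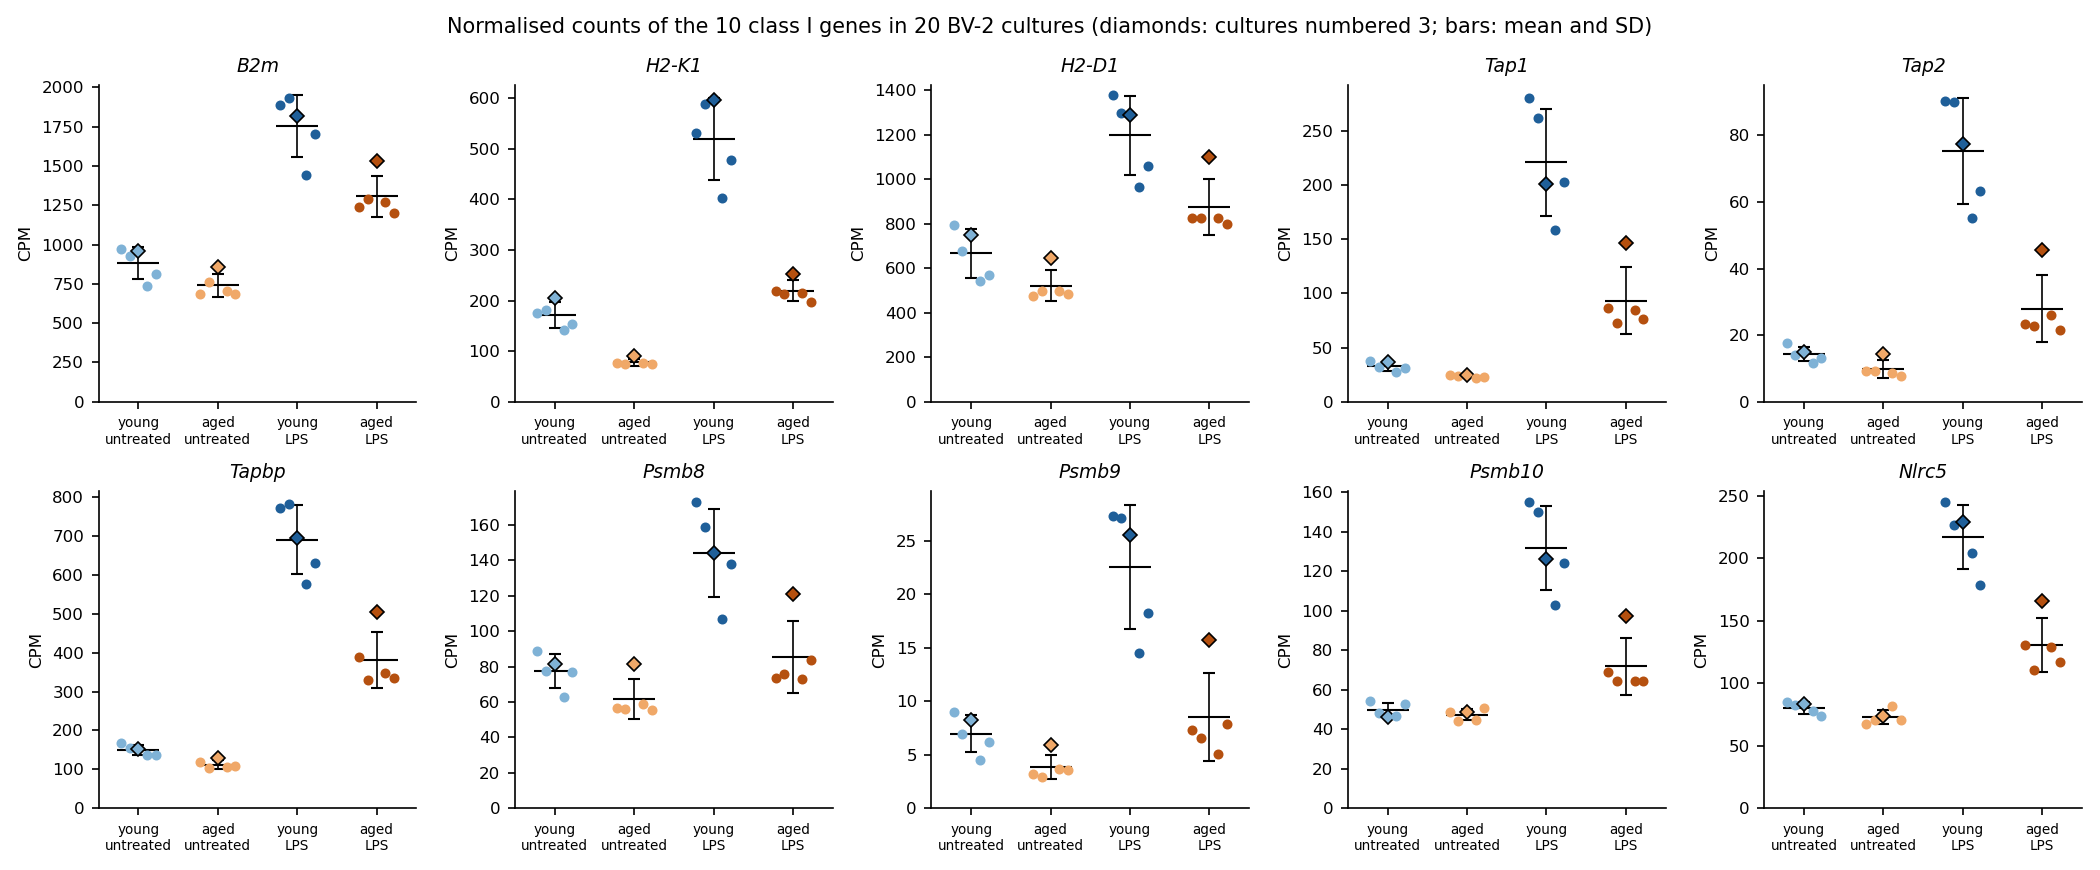
CPM of each class I gene (1 panel per gene, linear axis from 0) in the 5 cultures of each group. Points are cultures, diamonds are cultures numbered 3, horizontal bars are group means and vertical bars are SDs. After LPS every gene is higher in young than in aged cultures on average, and the aged diamond is the highest aged point in all 10 panels.

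The same treatment of aged cells also raised all 10 members (27.5% of all genes were called higher), with a median log2 fold change of 0.99 against 0.001 over all genes, and each rose in all 5 culture numbers. The groups did not overlap for 8 of 10 members, as for 21.0% of all genes, and *Psmb8* and *Psmb9* were the exceptions. *Tap1* read 24.8, 23.9, 24.9, 22.2 and 22.8 CPM in aged untreated cultures and 86.9, 72.3, 147, 84.7 and 76.5 CPM after LPS. The third culture was far above the other 4 after LPS although it was level with them before, and the log2 fold change was 1.98 ± 0.17 (edgeR adjusted p = 1.51e-09). *Tapbp* rose by 1.76 ± 0.11 (3.94e-12), *Tap2* by 1.5 ± 0.21 (1.9e-06), *H2-K1* by 1.48 ± 0.11 (5.65e-11) and *Psmb9* by 1.14 ± 0.28 (0.0014).

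The smaller rises in aged cells were those of *Nlrc5* (0.85 ± 0.094, adjusted p = 7.84e-08), *B2m* (0.82 ± 0.09, 6.51e-08), *H2-D1* (0.75 ± 0.12, 1.37e-05) and *Psmb10* (0.6 ± 0.11, 8.07e-05). *Psmb8* was the least changed, at 55.5 to 81.7 CPM without and 73.1 to 121 CPM with LPS, and the value of its highest untreated culture exceeded that of its lowest LPS culture. Its log2 fold change of 0.47 ± 0.14 (edgeR adjusted p = 0.00808) became 0.31 (adjusted p = 0.0562) when libraries were scaled by their totals alone. The median over all genes was then -0.16 in this comparison and -0.231 in the young one, against 0.001 and -0.011 with TMM scaling. Under that scaling the other 9 members were still called. Without aged culture 3 all 10 were called, with log2 fold changes of 1.77 for *Tap1*, 1.43 for *Tap2*, 1.0 for *Psmb9*, 0.75 for *Nlrc5*, 0.48 for *Psmb10* and 0.43 for *Psmb8* (edgeR adjusted p at most 0.00241).

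Aged cells were next compared with young cells without LPS, to see whether the class I genes differed before the stimulus. All 10 members had log2 fold changes below 0, with a median of -0.38 against -0.014 over all genes, and 2 were called lower, *H2-K1* and *Tapbp*, where 7.81% of all genes were. *H2-K1* read 77.1, 73.8, 90.5, 76.5 and 74.6 CPM in aged cultures against 141 to 206 CPM in young ones. The groups were well apart, the difference was present in all 5 culture numbers, and the log2 fold change was -1.13 ± 0.11 (edgeR adjusted p = 3.07e-07). *Tapbp* read 118, 103, 128, 105 and 108 CPM in aged and 168, 154, 152, 136 and 136 CPM in young cultures, a log2 fold change of -0.41 ± 0.11 (adjusted p = 0.0146, lower in 5 of 5 numbers). The call on *Tapbp* was lost without culture number 1 (adjusted p = 0.0565) and without number 2 (0.0964). The groups did not overlap for *H2-K1*, *Tapbp* and *Tap1*, 3 of 10 members, as for 6.63% of all genes.

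The count of members called without LPS depended on aged culture 3 and on the block. The culture numbers are batch numbers in the labels, each batch holding 1 culture of every group, and with the number as a replicate block 8 members were called lower (11.2% of all genes). Leaving out both aged cultures numbered 3 also gave 8 (9.38% of all genes). Leaving out a number in all groups gave 1 for number 1 or 2, 6 for number 3, 4 for number 4 and 2 for number 5. With the block, and without both aged cultures numbered 3, *B2m*, *H2-D1*, *Tap1*, *Tap2*, *Psmb8* and *Psmb9* joined *H2-K1* and *Tapbp*. With the block, *Psmb9* had a log2 fold change of -0.84 (adjusted p = 0.00666, against 0.0542 without it), *Tap2* of -0.55 (0.0289, against 0.111), *Tap1* of -0.47 (0.0396, against 0.0768), *H2-D1* of -0.35 (0.00485, against 0.0535), *Psmb8* of -0.33 (0.0474, against 0.15) and *B2m* of -0.25 (0.00805, against 0.0701). Without aged culture 3 the values were -1.05 for *Psmb9* (edgeR adjusted p = 0.00337), -0.72 for *Tap2* (0.00287), -0.5 for *Tap1* (0.0183), -0.45 for *H2-D1* and *Psmb8* (0.0064 and 0.00662) and -0.31 for *B2m* (0.0147). *Psmb10* (-0.07 ± 0.11, 95% interval -0.3 to 0.17, adjusted p = 0.776) and *Nlrc5* (-0.14 ± 0.094, -0.34 to 0.05, adjusted p = 0.358) were not called in any of these fits. In *Tap2* and *Psmb8* aged culture 3 was within the young range (14.5 and 81.7 CPM), whereas the other 4 aged cultures lay at 7.86 to 9.15 CPM and 55.5 to 58.7 CPM.

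After LPS all 10 members were lower in aged than in young cultures, where 15.0% of all genes were called lower. The median log2 fold change was -0.87 against 0.008 over all genes, and each member was lower in 5 of 5 culture numbers. *Tap2* and *Psmb9* were at the head, within each other's error. *Tap2* read 23.5, 22.7, 45.7, 26.0 and 21.7 CPM in aged cultures against 55.3 to 90.4 CPM in young ones, a difference of -1.42 ± 0.19 on the log2 scale (edgeR adjusted p = 6e-06). *Psmb9* differed by -1.39 ± 0.25 (0.000173), *H2-K1* at -1.25 ± 0.1 (2.01e-08) and *Tap1* at -1.24 ± 0.16 (5.27e-06). *H2-K1* read 218, 212, 253, 215 and 197 CPM in aged LPS cultures, a range that overlapped that of young untreated cultures (141 to 206 CPM).

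*Psmb10*, at 69.0, 64.3, 97.1, 64.3 and 64.4 CPM in aged LPS cultures, was lower by 0.87 ± 0.11 on the log2 scale (adjusted p = 3.49e-06), and *Tapbp*, at 388, 330, 503, 348 and 335 CPM, by 0.86 ± 0.1 (2.88e-06). *Psmb8* was at -0.75 ± 0.14 (0.000327) and *Nlrc5*, at 131, 111, 166, 129 and 117 CPM, at -0.73 ± 0.092 (4.37e-06). *H2-D1* and *B2m* had the smallest differences, with -0.46 ± 0.12 (0.00548) and -0.43 ± 0.089 (0.000858). Groups did not overlap for 6 of 10 members, as for 8.16% of all genes, and in *B2m*, *H2-D1*, *Psmb8* and *Psmb9* aged culture 3 lay above young culture 4. All 10 were also called with the block and without aged culture 3, where the log2 fold changes ran from -0.49 for *B2m* to -1.68 for *Tap2* and -1.73 for *Psmb9*, and 9 without number 2, where *H2-D1* was lost (adjusted p = 0.066).

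The microglia and macrophage markers moved the same way between the ages. In aged untreated cultures 5 of 10 were called lower, where 7.81% of all genes were. In aged LPS cultures 7 of 10 were called lower, where 15.0% of all genes were, and no marker was called higher in either. Their summed level ranged from 3930 to 4960 CPM in young untreated, 3370 to 4200 CPM in aged untreated, 4170 to 5330 CPM in young LPS and 3510 to 4640 CPM in aged LPS cultures, and their part in the differences between ages was not tested. In bulk RNA, fewer cells with a transcript and less of it per cell cannot be told apart.

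**Figure D3:**
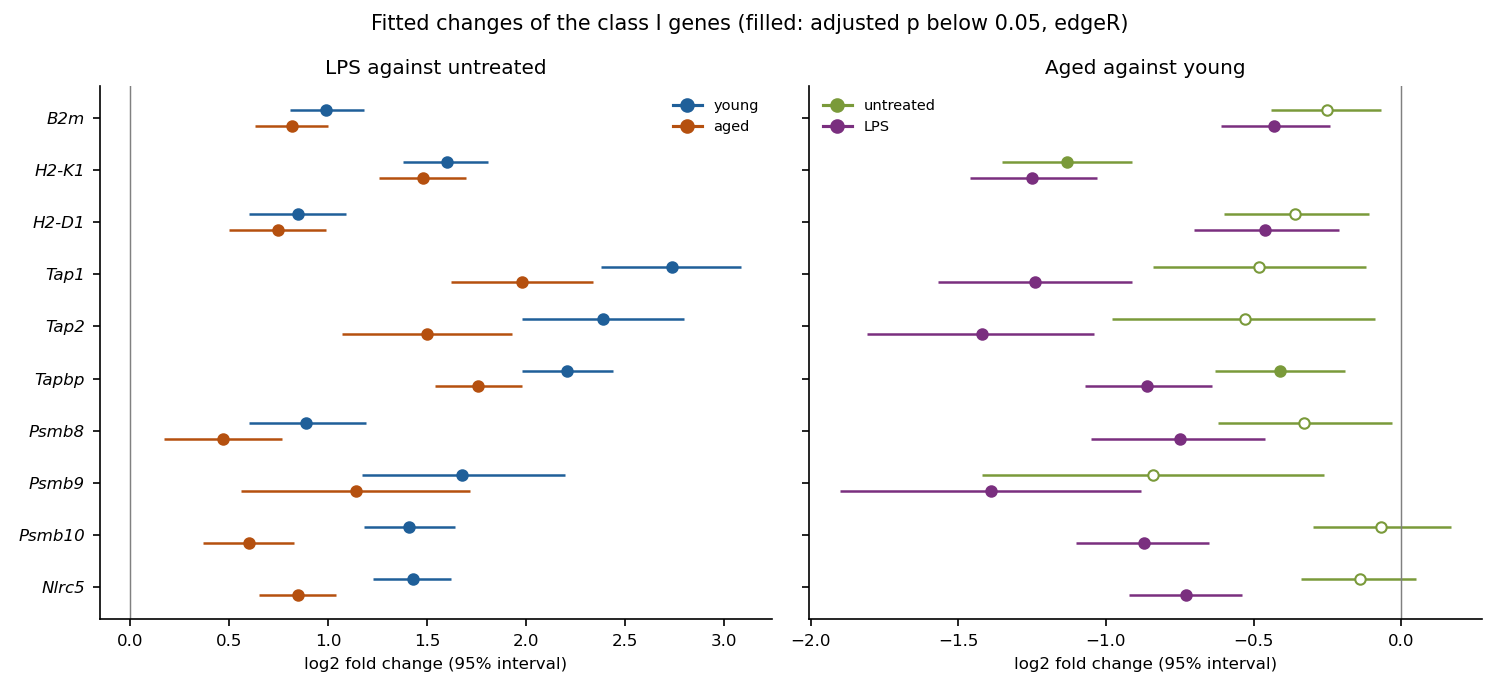
Fitted log2 fold changes with 95% intervals for the 10 class I genes, on the left for LPS against untreated in young and aged cells, on the right for aged against young cells without and with LPS. Filled points have an edgeR adjusted p below 0.05. All points on the left are filled and right of 0, with the aged value below the young one for each gene, and on the right all points are left of 0.

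Whether the LPS response itself differed with age was tested by the interaction, the difference of the LPS log2 fold changes, aged minus young. It was below 0 for all 10 members, with a median of -0.5 against 0.019 over all genes. It was called for *Psmb10* and *Nlrc5*, where 2.27% of all genes were called in that direction. *Psmb10* rose 2.65-fold in young and 1.52-fold in aged cells (difference -0.81 ± 0.16, edgeR adjusted p = 0.00262), and *Nlrc5* rose 2.69-fold and 1.8-fold (difference -0.58 ± 0.13, adjusted p = 0.00879), and both were smaller in aged cells in 5 of 5 culture numbers. Neither call held without culture number 2 (adjusted p = 0.0503 and 0.0977), and that of *Nlrc5* was also lost without number 4 (0.0559).

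With the replicate block 5 members were called in the interaction (3.41% of all genes), and without aged culture 3 also 5 (2.95% of all genes), in both cases with *Tap1*, *Tap2* and *Tapbp* added. With the block the difference was -0.78 for *Tap1* (adjusted p = 0.0213, against 0.0587 without it), -0.9 for *Tap2* (0.0134, against 0.0637) and -0.45 for *Tapbp* (0.013, against 0.0777). Without aged culture 3 the differences were -0.93 for *Psmb10* (edgeR adjusted p = 0.000212), -0.68 for *Nlrc5* (0.00084), -0.96 for both *Tap1* and *Tap2* (0.00226 and 0.00368) and -0.52 for *Tapbp* (0.00803). For the class I molecule itself no difference in response was called in any of these fits. The interval of the difference was -0.42 to 0.18 for *H2-K1* (adjusted p = 0.742), -0.45 to 0.25 for *H2-D1* (0.827) and -0.44 to 0.08 for *B2m* (0.5). The comparisons above share groups of cultures, so that they are not independent of one another.

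The balance between immunoproteasome and constitutive subunits can be read within a library as the log2 ratio of counts, which no scaling of libraries changes. The constitutive subunits *Psmb5*, *Psmb6* and *Psmb7* rose with LPS themselves, by 0.32, 0.93 and 0.39 on the log2 scale in young (edgeR adjusted p = 7.56e-06, 3.07e-12 and 1.38e-06) and by 0.32, 0.77 and 0.25 in aged cells (1e-05, 1.35e-10 and 0.000424). *Psmb7* was also called higher in aged untreated cells, by 0.2 (adjusted p = 0.0204), a call lost without culture number 1, 2 or 3 (0.0756, 0.0845 and 0.0529). In young cells all 3 immunoproteasome subunits gained on their counterparts. The *Psmb10*/*Psmb7* log2 ratio was -2.12, -2.35, -2.34, -2.46 and -2.3 in untreated and -0.94, -1.14, -1.35, -1.58 and -1.52 in LPS cultures, a difference of 1.01 (exact two-sided permutation test, adjusted p = 0.0198 over 15 tests; the smallest p for 5 against 5 is 0.00794). Per transcript length, *Psmb10* thus went from 40.5% ± 3.58 to 82.2% ± 15.6 of *Psmb7* (SD, n = 5). The *Psmb9*/*Psmb6* ratio rose by 0.76 and the *Psmb8*/*Psmb5* ratio by 0.57 in young cells (exact permutation test, adjusted p = 0.0265 and 0.0198).

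In aged cells the balance moved less. The *Psmb10*/*Psmb7* ratio rose by 0.33 (adjusted p = 0.0265, exact permutation test), from -2.54, -2.61, -2.46, -2.61 and -2.64 to -2.3, -2.36, -1.71, -2.38 and -2.49, or from 33.7% ± 1.71 to 43.1% ± 10.3 per length (SD, n = 5). The differences for *Psmb9*/*Psmb6* (0.3) and *Psmb8*/*Psmb5* (0.13) did not pass (exact permutation test, adjusted p = 0.468 and 0.5). Aged cultures had lower ratios than young ones without LPS, by -0.26 for *Psmb10*/*Psmb7*, -0.87 for *Psmb9*/*Psmb6* and -0.33 for *Psmb8*/*Psmb5* (exact permutation test, adjusted p = 0.0198, 0.0265 and 0.0458), and with LPS, by -0.94, -1.33 and -0.76 (0.0198, 0.0298 and 0.0298). The change of the ratio with LPS was smaller in aged cells, by -0.68 for *Psmb10*/*Psmb7*, -0.46 for *Psmb9*/*Psmb6* and -0.43 for *Psmb8*/*Psmb5* (exact permutation test, adjusted p = 0.0198, 0.0298 and 0.0198). Aged culture 3 had the highest ratio of its group in all 3 pairs with and without LPS. Without culture number 3 the change with LPS in aged cells was 0.22 for *Psmb10*/*Psmb7*, 0.19 for *Psmb9*/*Psmb6* and 0.08 for *Psmb8*/*Psmb5*, and the differences of response were -0.79, -0.6 and -0.52. All the calls on these ratios held without number 3 and were lost without number 1, 2, 4 or 5, where 4 cultures against 4 were left. The smallest p that the test can give is larger with 4 against 4. A lost call alone therefore does not show that a difference rests on the culture left out. *Psmb9* had few reads, down to 44 in a library, and its ratios carry the most counting error.

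**Figure D4:**
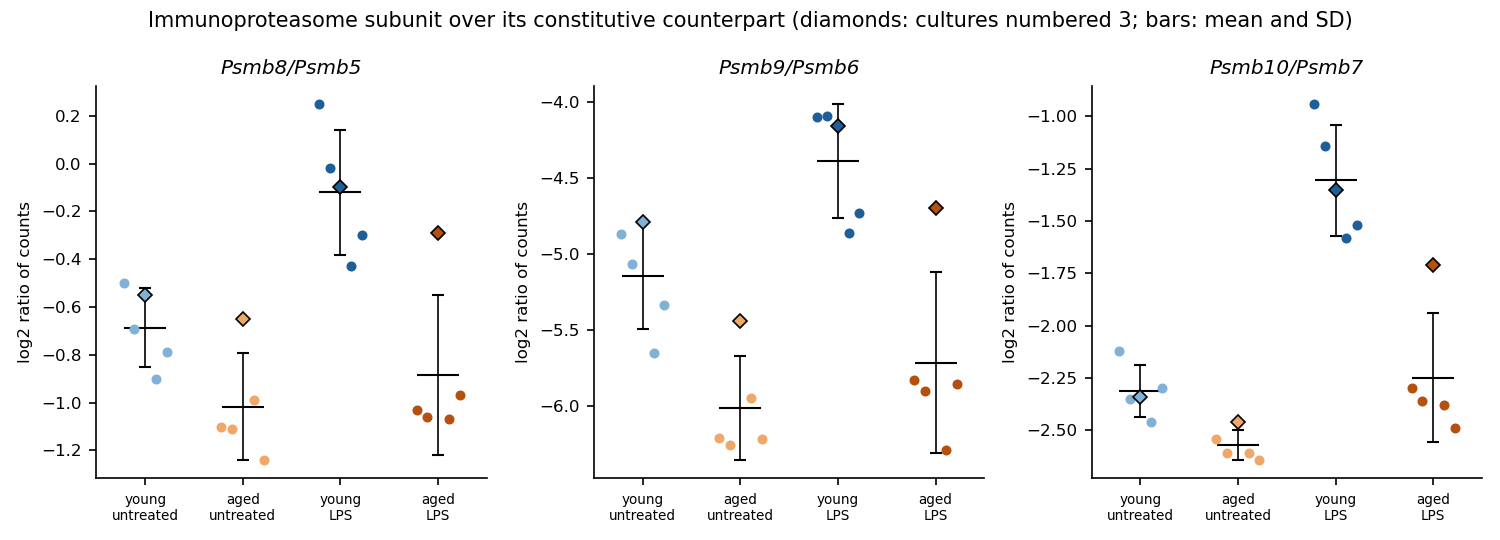
log2 ratio of the counts of each immunoproteasome subunit to those of its constitutive counterpart in the 5 cultures of each group. Points are cultures, diamonds are cultures numbered 3, and bars are the mean and SD. The young LPS group has the highest mean in each panel, and aged LPS culture 3 lies above the other aged LPS cultures and, in the *Psmb8* and *Psmb9* panels, above young LPS cultures 4 and 5.

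Other genes of the class I pathway were described from lists of class Ib molecules, loading and trimming factors, proteasome activators, transcription factors and interferon signalling, 72 genes of which 59 were tested. In young cells 37 were called higher and 8 lower after LPS, where 31.2% of all genes were higher and 33.5% lower. In aged cells 31 and 9 were called, where 27.5% and 26.9% of all genes were. Between aged and young LPS cultures 2 were higher and 28 lower, where 14.0% and 15.0% of all genes were. Without LPS 12 were lower and none higher, where 7.81% of all genes were lower. The interaction was called for 6, all lower, where 2.27% of all genes were. These shares of all genes also stand beside the counts of the separate lists that follow. The class Ib molecules showed the widest range. *H2-M2* went from 0.413 ± 0.204 to 38.2 ± 13.9 CPM in young and from 0.156 ± 0.105 to 14.7 ± 6.62 CPM in aged cells (SD, n = 5). *H2-T24* rose by 5.48 and 5.49 on the log2 scale (edgeR adjusted p = 1.19e-17 and 2.01e-16) and was lower in aged cells both without LPS (-1.04, adjusted p = 0.0305) and with it (-1.03, 7.6e-07). The call without LPS rested on 5 to 16 reads per library and was lost without culture number 1, 2, 4 or 5 (adjusted p up to 0.151). *H2-Q4* rose by 2.93 in young and 2.8 in aged cells (6.52e-16 and 6.91e-15) and was lower in aged untreated cells by -0.76 (0.000531). *H2-T22* rose by 2.06 in young and 1.19 in aged cells (2.69e-11 and 6.42e-07), and this response differed (-0.87 ± 0.21, adjusted p = 0.0138).

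Of 9 genes for peptide loading and trimming in the endoplasmic reticulum, 4 rose and 1 fell in young and 3 rose and 1 fell in aged cells after LPS, 2 were lower in aged LPS cultures, and the interaction was called for *Erap1*, which trims peptides to length (-0.32 ± 0.073, edgeR adjusted p = 0.00851). Of 7 cytosolic peptidases, 5 rose in young cells, 4 rose and 1 fell in aged cells, and none was called between the ages. Of 9 proteasome activators and assembly factors, 4 rose and 1 fell in young and 3 rose and 1 fell in aged cells, 3 were lower in aged LPS cultures, and the interaction was called for *Psme2*, a subunit of the PA28 activator (-0.55 ± 0.16, edgeR adjusted p = 0.0474). *Erap1* and *Psme2* were singled out after their values were seen. *Mr1*, which presents microbial vitamin metabolites, fell after LPS by 1.72 in young and by 1.36 in aged cells (edgeR adjusted p = 2.58e-07 and 2.16e-05).

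Of 18 genes for the transcription of class I genes, 11 rose and 4 fell with LPS in young cells, 9 rose and 4 fell in aged cells, and 2 were higher and 10 lower in aged than in young LPS cultures. *Irf1*, an interferon-induced activator of class I promoters, read 106, 114, 79.2, 59.6 and 82.7 CPM in young LPS and 40.3, 36.0, 58.7, 34.5 and 34.9 CPM in aged LPS cultures. The groups did not overlap, although aged culture 3 came close, and the LPS response differed by -0.85 ± 0.24 (edgeR adjusted p = 0.0349, smaller in aged cells in 4 of 5 numbers). *Stat2*, which carries type I interferon signals, rose by 3.44 in young cells (3.23e-12), and its response was smaller in aged cells by -1.23 ± 0.3 (adjusted p = 0.0155). The calls on *Irf1*, *Stat2* and *H2-T22* in the interaction were each lost without culture number 1, 2 or 5. The genes higher in aged LPS cultures were *Rfxap*, a part of the RFX complex at class I promoters, and *Creb1*, which binds CRE sequences. *Rfxap* fell after LPS by 0.71 in young and by 0.41 in aged cells (2.45e-07 and 0.000251) and was higher in aged than in young LPS cultures by 0.47 (0.000376), and *Creb1* was higher by 0.25 (0.016), a call lost without culture number 1 or 2 (0.0845 and 0.0939).

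Of 8 interferon signalling genes tested, 7 rose and 1 fell in young and 6 rose and 1 fell in aged cells, and 7 were lower in aged LPS cultures. *Ifngr1*, the ligand-binding chain of the interferon gamma receptor, fell by 0.68 and by 0.47 (edgeR adjusted p = 1.12e-08 and 5.69e-06). *Ifnb1*, the gene of interferon beta, had no read in any untreated library and 1 to 7 reads in young and 0 to 4 in aged LPS libraries, too few for a comparison. *Ifng* was at 0 in all 20 libraries. A count of 0 allows up to 3 reads, 0.178 to 0.264 CPM of a library's total, counting error only.

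The genes whose profile over the 4 group means was nearest to each member were taken from all genes tested, by Euclidean distance in log2 CPM after centring each gene on its own mean. Nearest to *B2m* was the complement receptor gene *C3ar1* (distance 0.0186), nearest to *H2-D1* was *Uchl1* (0.0365), and nearest to *Psmb8* was *Gadd45g* (0.0568). The nearest genes of *Nlrc5* were *Fndc7* (0.0753) and *Casp1* (0.0862), of *Psmb10* *Samhd1* (0.0814) and *Jak2* (0.0935), of *Tapbp* *Ahnak2* (0.0816) and of *Tap2* *Nmi* (0.0823). *Tap1* lay nearest to *Cdkn1a* (0.12), *Psmb9* to *Optn* (0.196) and *H2-K1* to *Gm20658* (0.232), followed by *Mpeg1* (0.233). No member was among the 3 nearest genes of another member. These distances rest on 4 group means and are a description.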

How the data were processed

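Poly(A) RNA of 20 BV-2 cultures was made into stranded libraries and sequenced as read pairs by the authors. They aligned reads to GRCm38 with STAR (2.6.1d), counted them per gene with featureCounts (1.5.1) and deposited whole-number counts without normalization. The settings for strand and multiple alignments are not given in the sources used here. Symbols, coordinates and exonic lengths came from GENCODE for GRCm38, in which 55227 identifiers were found, and promoters from RefSeq (GRCm38.p6). Groups and culture numbers came from the labels. The members and all gene lists were chosen with earlier results of these data known.

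All 20 libraries entered 1 edgeR model (edgeR 4.0.16, R 4.3.3) of group alone, after TMM scaling and filterByExpr (12799 genes kept). Quasi-likelihood F-tests received Benjamini-Hochberg adjustment over these genes, and 0.05 was the threshold. Log2 values of CPM used a prior count of 2. SE is the log2 fold change divided by the root of F. Ratios of counts were compared by exact two-sided permutation tests, adjusted over 15. No group had fewer than 5 libraries. Totals of 11371508 to 16829292 counts set a floor of 3 counts at 0.178 to 0.264 CPM, for counting error only. The study describes the cultures as independent replicates, and p-values measure the spread between them. Whether this includes a spread between separate long cultivations is not given in the sources used here.

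Culture numbers are batch numbers in the labels and so pair the cultures. Deviations from the group means of same-numbered cultures correlated over genes with a mean r of 0.276 between young untreated and young LPS and 0.26 between aged untreated and aged LPS cultures, and of 0.0426 to 0.111 between the other pairs of groups. Results of the gene models with the number as a block stand beside those it changes. The permutation tests of the ratios between groups did not use the pairing.

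All members were named, with at most 3 called genes per direction and comparison from the other class I lists and from the class II list (largest change, mean log2 CPM of at least 1), *Psmb5*, *Psmb6*, *Psmb7*, *Tnf*, *Il1b*, *Nos2*, *Irf1* and *Ifnb1*, and the nearest genes. Another gene of this rule is not reported here. The LPS genes of aged culture 3, *Ciita* and *Ifng* were described after their values were seen. Alternatives were DESeq2 (1.42.0), the block in both tools, other scalings and filters, fits of only the compared groups, a stricter threshold (0.01), a minimum size of 0.5 (log2), and each culture number left out. On counts simulated for aged against young untreated cultures (12640 genes), edgeR recovered 175 of 200 genes changed 2-fold with 11 false calls. Tables and permutation tests were made in Python (3.11.15) with scipy (1.17.1), numpy (2.4.6) and pandas (2.3.3), figures with matplotlib (3.10.9).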

Additional observations from a re-analysis of the deposited data

Results flagged for a closer look

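In 9 of the 40 sets of 5 cultures (10 genes in 4 groups), 1 culture lay apart from the other 4 by more than Dixon's critical value of 0.71 for the gap divided by the range of log2 CPM, where chance gives about 1 in 20. In all 9 it was aged culture 3, the highest of its group. Without LPS the gap was 0.787 of the range for *H2-K1*, 0.843 for *H2-D1*, 0.752 for *Tap2* and 0.858 for *Psmb8*. With LPS it was 0.891 for *H2-D1*, 0.741 for *Tap1*, 0.757 for *Tap2*, 0.735 for *Psmb8* and 0.829 for *Psmb10*. These genes are not independent, because they belong to 1 pathway and were read from the same libraries.

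The LPS response differed between the ages, by the interaction in edgeR, for *Psmb10* (-0.81, aged minus young, log2) and *Nlrc5* (-0.58). It also differed, by exact permutation tests of the ratios, for *Psmb8*/*Psmb5* (-0.43), *Psmb9*/*Psmb6* (-0.46) and *Psmb10*/*Psmb7* (-0.68).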

How the results depend on the processing

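Over all alternatives the log2 fold changes of the members kept their direction and their side of the threshold 726 times, passed it only under the alternative 52 times and lost it 12 times, and none reversed. Unless stated otherwise the cause of a change was not tested. The count of members called without LPS (2) was 8 with the replicate block (edgeR or DESeq2 alike), 4 with DESeq2 without the block, 5 with no filter on low counts, 6 with only the groups compared, and 1 with a threshold of 0.01 or a minimum log2 fold change of 0.5. It was 1 to 8 when a culture number or, as a choice made after seeing the data, both aged cultures numbered 3 were left out. The count for the difference of the LPS responses (2) was 5 with the replicate block in edgeR, 6 with it in DESeq2, 5 with DESeq2 without the block, 5 with no filter, and 0 to 5 with cultures left out (5 without aged culture 3). The block moved no other count of members by over 1.5 times. Scaling by library totals alone moved the share of higher calls among all called genes from 48.2% to 27.3% for LPS in young, from 50.6% to 28.4% for LPS in aged cells, from 48.3% to 70.1% between ages after LPS and from 64.4% to 81.3% for the difference of responses.

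The ratios kept their direction and calls with a pseudocount of 1. Their differences are the same with the block by construction, but their p-values need not be. Between groups the labels were permuted without regard to the culture number, and no paired test of the ratios was run. With 1 culture number left out (4 against 4), the calls on the 3 ratios held without number 3 and were lost without any other number (adjusted p = 0.0536 to 0.165). The smallest possible p is larger there than with all cultures, so the ranges of the differences are given. *Psmb8*/*Psmb5* ranged from -0.391 to -0.263 (ages, untreated), 0.523 to 0.598 (LPS, young), -0.909 to -0.635 (ages, LPS) and -0.52 to -0.372 (difference). *Psmb9*/*Psmb6* ranged from -1.014 to -0.755, 0.703 to 0.794, -1.524 to -1.205 and -0.598 to -0.288 in the same order. *Psmb10*/*Psmb7* ranged from -0.294 to -0.22, 0.955 to 1.065, -1.085 to -0.835 and -0.791 to -0.61, and from 0.22 to 0.37 for LPS in aged cells. The difference of responses of *H2-K1*/*H2-D1* ranged from -0.035 to 0.005, with the sign reversed without number 1. *Psmb9*, with the fewest reads, is the member most limited by depth.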

Other observations

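Of the MHC class II genes, *H2-Aa*, *H2-Ab1* and *H2-Eb1*, the classical class II chains, were at 0 in all 20 libraries, and *Ciita*, the coactivator of class II genes and a relative of *Nlrc5*, had at most 5 reads in any library. *Cd74*, the invariant chain, was detected in every library and rose with LPS by 2.23 in young and 2.26 in aged cells on the log2 scale (edgeR adjusted p = 3.11e-11 and 6.58e-11), and it was lower in aged cells without LPS (-0.66, adjusted p = 0.0102) and with it (-0.63, 0.00293). The call without LPS was lost without culture number 2 (adjusted p = 0.0727). Aged culture 3 had the lowest *Cd74* value of the aged LPS cultures, 121 CPM against 159 to 168 CPM. *Ifi30*, the thiol reductase of lysosomes, fell with LPS by 0.53 in young and by 0.37 in aged cells (1.75e-08 and 7.07e-06). Of 13 class II pathway genes 6 were tested. With LPS 2 rose and 1 fell in young cells, where 31.2% of all genes were called higher and 33.5% lower. In aged cells 2 rose and 2 fell, where 27.5% and 26.9% of all genes did. Between the ages 2 were lower in aged cells without LPS and 2 with it, where 7.81% and 15.0% of all genes were. No interaction was called (edgeR).

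The ratio of *H2-K1* to *H2-D1* was added after the values had been seen. Its log2 value was -2.18, -1.91, -1.87, -1.95 and -1.88 in young untreated, -2.63, -2.76, -2.84, -2.7 and -2.7 in aged untreated, -1.38, -1.15, -1.11, -1.26 and -1.16 in young LPS and -1.92, -1.96, -2.12, -1.94 and -2.03 in aged LPS cultures. No groups overlapped in the 4 comparisons within an age or a treatment. The ratio was lower in aged cells by -0.77 without LPS and -0.78 with it, and LPS raised it by 0.74 in young and 0.73 in aged cells (exact two-sided permutation tests, adjusted p = 0.00992 each over 5 tests). The difference of the LPS responses was -0.01 (exact permutation p = 0.643). Aged culture 3, the highest for both genes after LPS, had the lowest ratio of its group with and without LPS. The ratio is free of library scaling, but reads shared between the heavy chain genes could enter both counts.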
